A study of Saccharomyces cerevisiae with 161 samples.

Results

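The genes described here are the most abundant polyadenylated transcripts of wild-type budding yeast early in meiosis. They were selected on their measured transcript level, which had to reach at least 1000 on the TPM scale (transcripts per 1000000) in an RNA-seq library. TPM is a read count corrected for gene length and scaled so that all listed genes add up to 1000000. The rule took 149 of 5508 listed genes, or 2.71%. Because this level chose the genes, the levels and the share of TPM below are a description and carry no test, whereas the places of the genes in the gene order were not used to choose them.

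The study followed proteins of the meiotic chromosome axis by ChIP-seq, and a single RNA-seq library accompanied it. The library came from strain H119 of the SK1 background, which the labels call wild type and for which they give no other allele and no treatment. Cells were grown in BYTA medium and moved to sporulation (SPO) medium at 30°C, and the sample label gives 3 h of meiosis, while a figure legend of the study gives an earlier time. The labels mark the library as a reanalysis of an earlier deposit. RNA was extracted after mechanical lysis, selected with oligo-dT beads and sequenced from a stranded library. With 1 library there is no replicate error, TPM keeps no read depth, and more RNA from some cells cannot be told apart from more cells that make it.

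Sporulation medium is a starvation medium. In budding yeast it turns on Ime1, which acts through the DNA-binding protein Ume6 to switch on the early meiotic genes, among them those for the axis proteins Red1, Hop1 and Rec8 and for the recombination machinery. In growing yeast the most abundant messenger RNAs mostly encode ribosomal proteins, translation factors, glycolytic enzymes, histones and chaperones. Which of these classes the 149 genes belong to could not be read from the data. The table names genes by SK1 identifiers, and none of the 149 matched a name in the reference gene table. Likewise, none of 88 genes looked for by symbol in 6 lists (cytosolic ribosomal proteins, glycolysis, histones, heat shock proteins, elongation factors and early meiotic genes) was in the table under its symbol. The meiotic state of the culture therefore could not be checked against marker genes, and no gene is given a function here. An identifier does state the chromosome and the place of the gene along it, and these are used below.

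A small number of genes held a large part of the messenger RNA. Together the 149 genes made up 34.0% of all TPM, and the other 5359 genes made up the remaining 66.0%. The level of a typical member, the median, was 1576 TPM, with quartiles of 1299 and 2288 TPM. This was 21.8 times the median of all listed genes, which was 72.2 TPM. Of all TPM, 50% came from the 393 most abundant genes.

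Many members lay close to the threshold, and a few stood far above it. Of the 149 genes, 65 (43.6%) had between 1000 and 1500 TPM and 34 had between 1500 and 2000 TPM. A further 29 genes lay between 2000 and 3000 TPM, 14 between 3000 and 5000 TPM and 4 between 5000 and 10000 TPM. The 3 genes above 10000 TPM alone held 15.4% of the TPM of the set, or 5.24% of all TPM. The 10 most abundant genes held 27.1% of the TPM of the set and the 50 most abundant held 59.1%.

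**Figure D1:**
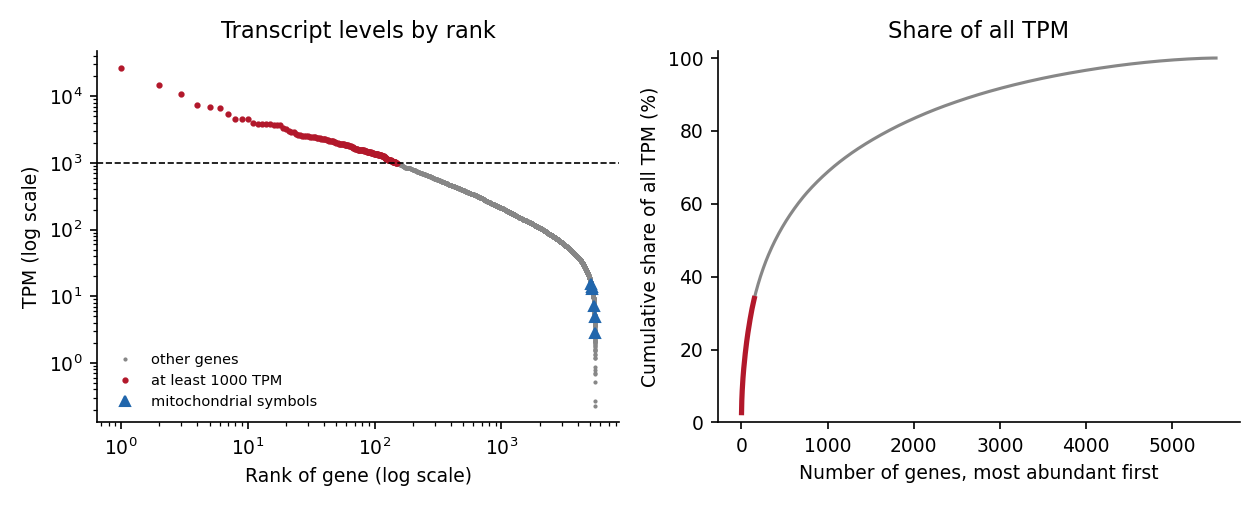
Left, TPM of every listed gene against its rank, both on log scales, with the 149 genes of at least 1000 TPM in red, the 6 genes listed by mitochondrial symbols as blue triangles and the threshold as a dashed line. Right, the share of all TPM in percent that is reached as genes are added from the most abundant on. The red stretch ends at 34.0%.

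The most abundant transcript, SK1_04G03460 on chromosome IV, had 26864 TPM and by itself made up 2.69% of all TPM. That is 1.81 times the second gene and 17.05 times the median of the set. The second, SK1_03G00700 on chromosome III, had 14873 TPM, and the third, SK1_01G00150 on chromosome I, had 10641 TPM. They were followed by SK1_04G02940 on chromosome IV with 7392 TPM and SK1_16G03030 on chromosome XVI with 6923 TPM. The 5 leading genes thus came from 4 chromosomes.

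No step in the levels marked the threshold. The lowest members were SK1_09G01450 with 1013 TPM and SK1_12G00180 with 1010 TPM, and the genes just outside were SK1_08G00800 with 997 TPM and SK1_04G04690 with 980 TPM. There were 16 genes from 900 to under 1000 TPM and 16 genes from 1000 to under 1100 TPM. Membership near the threshold therefore rests on small differences in a single library.

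The only genes of the table with a symbol, 6 genes of the mitochondrial genome, were at the other end of the range. COX1, COX2 and COX3 encode subunits of cytochrome c oxidase, COB encodes cytochrome b, and ATP6 and OLI1 encode subunits of the ATP synthase. OLI1 was the highest with 15.2 TPM, followed by COX2 with 13.7 TPM and COX3 with 13.0 TPM. COX1 had 7.19 TPM, ATP6 had 4.92 TPM and COB had 2.80 TPM. All 6 were below the lower quartile of all genes, 35.9 TPM. Yeast mitochondrial messenger RNAs lack the poly(A) tails of nuclear messengers, and the library was selected with oligo-dT. The part of this selection in their levels was not tested.

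Members were found on all 16 chromosomes. Each chromosome held between 0.791% and 4.55% of its listed genes in the set, with a median over chromosomes of 3.10%. Chromosome IV, with the most listed genes (713), also held the most members, 24. Chromosome XV followed with 17 of 491 genes, chromosome XIII with 15 of 434 and chromosomes II and XVI with 13 each. Fewest were found on chromosome VIII, with 2 of 253 genes.

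Numbers of members followed numbers of listed genes without a departure beyond that of permuted gene order. Chromosome XII held 7 members where its 470 genes would give 12.7, and chromosome X held 4 where 9.07 would be in proportion. Chromosome VIII held 2 in place of 6.85 and chromosome VII held 9 in place of 13.4. On the high side, chromosome IV held 24 in place of 19.3 and chromosome XV held 17 in place of 13.3. For 9 of the 16 chromosomes the number was within 3 genes of proportion. The summed squared departures, each divided by its expected number, came to 16.6, against 14.7 on average when the gene order was permuted over the whole genome (permutation test on large values, 10000 permutations, p = 0.320, Benjamini-Hochberg adjusted p = 0.480 over 3 tests).

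**Figure D2:**
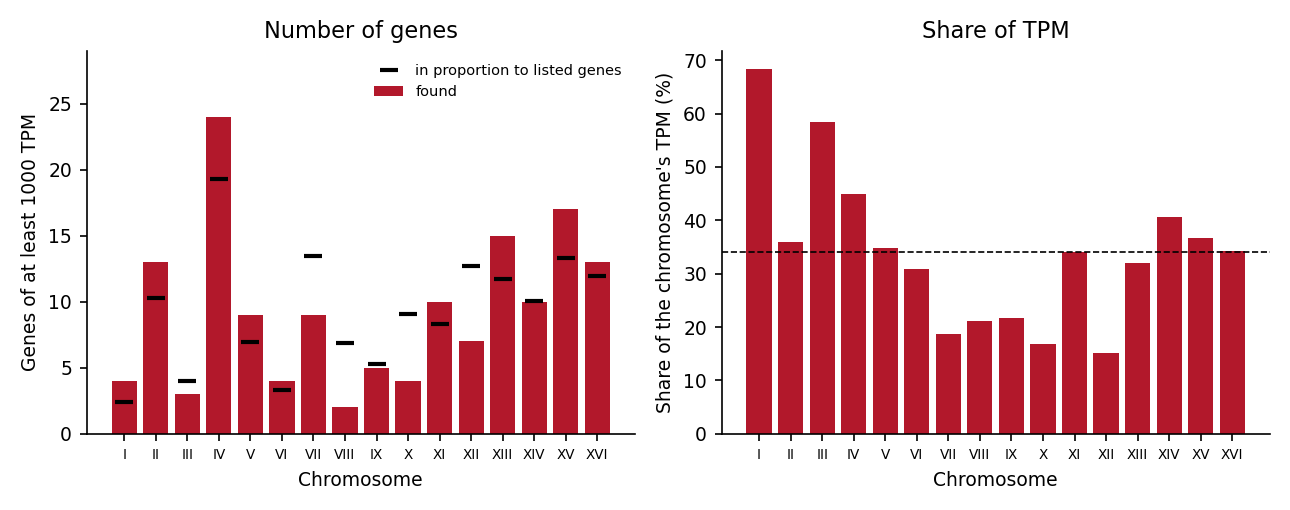
Left, the number of genes of at least 1000 TPM on each chromosome (bars) and the number in proportion to its listed genes (black marks). Right, the share of each chromosome's TPM in percent that these genes held, with their share of all TPM, 34.0%, as a dashed line. Chromosomes I and III have the tallest bars on the right with 4 and 3 genes, and chromosome XII has the lowest with 7.

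The share of a chromosome's TPM that came from its members ran from 15.2% on chromosome XII to 68.3% on chromosome I. Single genes weighed heavily on the short chromosomes I and III. On chromosome I, 4 of 88 genes held 68.3% of the TPM of the chromosome. Its members were SK1_01G00150 with 10641 TPM and 3 genes with 1592, 1344 and 1249 TPM, so a single gene set the value. On chromosome III, 3 of 147 genes held 58.5%, namely SK1_03G00700 with 14873 TPM and genes with 3816 and 3759 TPM. Chromosome VI, the other of the 3 shortest, had 4 members of 123 genes with 2476, 2397, 2382 and 1448 TPM, which held 30.8%. None of them stood apart as the leading genes of chromosomes I and III did.

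Among the longer chromosomes, the share was highest on chromosome IV with 44.9%, which carries the most abundant transcript, and on chromosome XIV with 40.6%. Chromosome XIV reached this with 10 members, of which 7 had more than 2000 TPM, and the median of its members was 2625 TPM. Chromosome XII had the lowest share, 15.2%, and the median of its 7 members was 1152 TPM. Chromosomes X and VII were also low, with 16.8% and 18.7%. The median over all genes of these chromosomes was 68.5, 61.7 and 81.2 TPM, against 67.3 TPM on chromosome XIV.

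Chromosomes I, III and VI are the short chromosomes on which peaks of the axis protein Red1 covered the largest part of the sequence, 60.2%, 47.2% and 56.0%, against 23.9% to 34.7% on the other 13 chromosomes. They held 11 members among 358 listed genes (3.07%), and the other 13 chromosomes held 138 among 5144 (2.68%), a difference that was not tested. Over the 16 chromosomes, Spearman's rho between the share of genes in the set and the Red1-covered share was −0.19 and Pearson's r was 0.25, so the measures differ in sign. Without the 3 short chromosomes, left out after the values had been seen, rho was −0.57 and r was −0.48 over 13 chromosomes. For Hop1 rho was −0.16 and r was 0.26 over all 16 chromosomes, and without the 3 they were −0.51 and −0.57. For Rec8 rho was −0.09 and r was 0.12 over all 16, and −0.39 and −0.47 without the 3. These values describe 16 points that each rest on 2 to 24 members. The wild-type ChIP replicates in the labels include a Red1 and a Hop1 sample from a strain with a tagged condensin subunit (SMC4-PK9). The files give the genes no coordinates, so peaks were not compared with single genes.

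Along the chromosomes the members were mostly scattered. Genes were ordered by the number in their identifiers, which rises in steps of 10 for 5471 of the 5486 neighbouring pairs of listed genes. From a member to the next on the same chromosome, the median step was 20 places over 133 steps, with 36.9 listed genes per member on average. Of these steps, 7 were of 1 place, 3 of 2 places and 5 of 3 places. The longest stretch without a member between members was 172 genes on chromosome X, between SK1_10G01020 with 3056 TPM and SK1_10G02750 with 1891 TPM. On chromosome VIII, both members lay at the start of the gene order, at places 12 and 22 of 253, and the following 231 genes held none. No stretch of 10 neighbouring genes held more than 3 members, and 76.4% of such stretches held none.

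**Figure D3:**
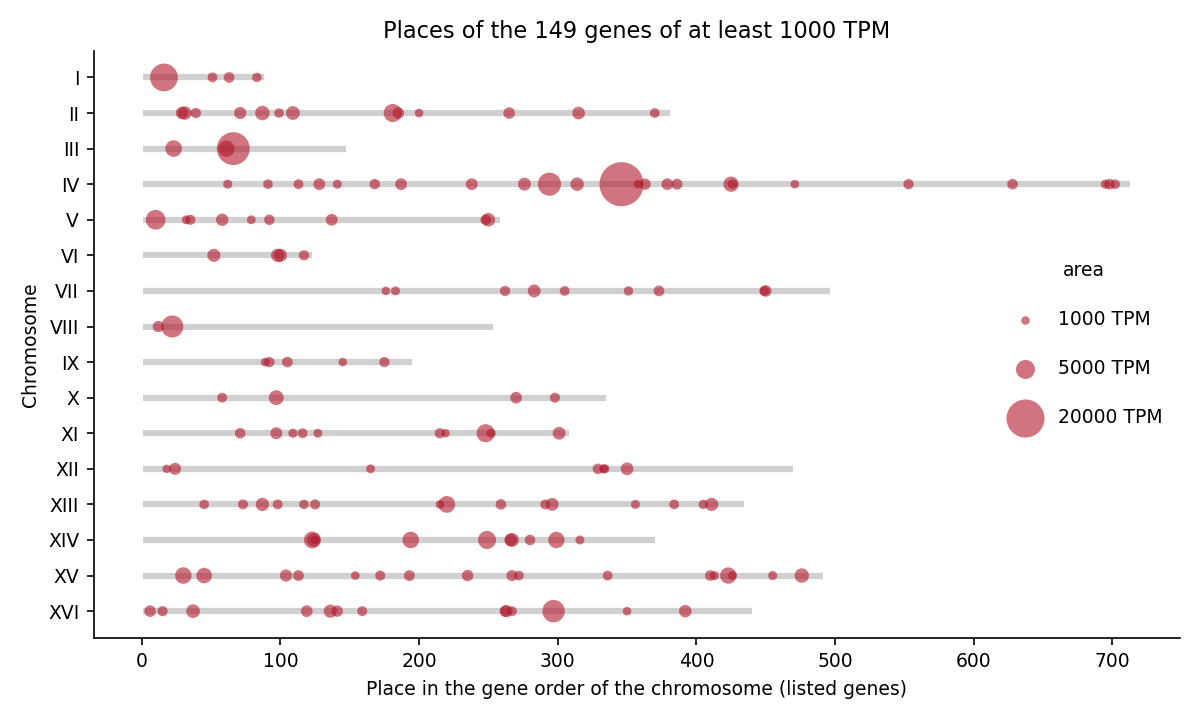
Places of the 149 genes of at least 1000 TPM in the gene order of the 16 chromosomes. The horizontal axis counts listed genes from the start of the numbering, grey bars show all listed genes, and the area of a red circle is in proportion to TPM. The 2 circles of chromosome VIII lie at its left end, and the largest circle is SK1_04G03460 with 26864 TPM.

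A few members neighbouring each other were found, in a number within the range of permuted gene order. Of the 149 genes, 13 (8.72%) had another member as the next listed gene, where 5.34% of all genes with an SK1 identifier and 5.25% of the non-members had one. The other 136 members had none. There were 7 adjacent pairs of members, against 4.04 on average and 1 to 8 in the central 95% of 10000 permutations of the gene order within chromosomes (two-sided permutation test, p = 0.223, Benjamini-Hochberg adjusted p = 0.480 over 3 tests). These are tests over genes of 1 library and say nothing about other cultures.

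Chromosome XIV carried 3 of the 7 pairs. Without it, left out because it had the most pairs, which can only lower the excess, 4 pairs remained, against 3.81 in permuted order (adjusted p = 1, same permutation test). The outcome of the test depended on the threshold, while the number of pairs was above the permuted average at each threshold used. At 500 TPM there were 38 adjacent pairs among 365 genes against 24.5 in permuted order (two-sided permutation test, adjusted p = 0.0300), a 1.55-fold excess beside 1.73-fold at 1000 TPM. At 2000 TPM only 2 pairs were found, against 0.49 in permuted order (same permutation test, adjusted p = 0.480). The p-value of each alternative was adjusted together with the main p-values of the other tests at 1000 TPM.

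**Figure D4:**
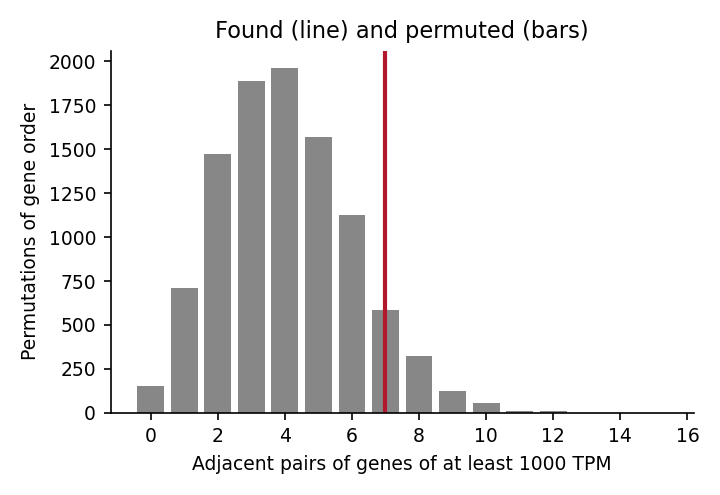
Number of adjacent pairs of genes of at least 1000 TPM in 10000 permutations of the gene order within chromosomes (grey bars, count of permutations) and in the data (red line, 7 pairs). Of the permutations, 1115 had 7 or more pairs.

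The 13 neighbouring genes formed 5 pairs and a run of 3. The run of 3, on chromosome XIV, was the longest, with SK1_14G01240 at 3943 TPM, SK1_14G01250 at 2575 TPM and SK1_14G01260 at 1013 TPM, in descending order along the chromosome. The gene before it had 191 TPM and the gene after it 40.2 TPM. The pairs are named here after their values had been seen. A second pair on chromosome XIV, SK1_14G02670 with 2180 TPM and SK1_14G02680 with 2675 TPM, was flanked by genes of 26.1 and 19.7 TPM.

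Among the 5 pairs outside the run, the largest ratio was on chromosome IV, where SK1_04G04250 had 3244 TPM and SK1_04G04260 had 1299 TPM. The 2 genes of the pair on chromosome VII, SK1_07G04490 and SK1_07G04500, had 1387 and 1869 TPM. On chromosome XII, SK1_12G03330 with 1092 TPM and SK1_12G03340 with 1152 TPM were nearly equal. The pair on chromosome XVI consisted of SK1_16G02680 with 1684 TPM and SK1_16G02690 with 2100 TPM. Over the 7 adjacent pairs, counting both pairs within the run, the higher gene had 1.06 to 2.54 times the TPM of the lower, with a median of 1.35. Whether any of these neighbours are near-identical copies that share reads was not tested, since the files hold no gene sequences.

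Non-members next to members, which are below 1000 TPM by the rule, had levels close to those of other non-members. The 281 non-members that were the next listed gene to a member had a median of 68.2 TPM and quartiles of 35.8 and 156 TPM. All 5072 other non-members with SK1 identifiers had a median of 69.0 TPM and quartiles of 35.1 and 141 TPM. On the log2(TPM + 1) scale the medians differed by −0.02, next genes minus others, while 95% of the permutations lay between −0.21 and 0.25 (two-sided permutation test within chromosomes, p = 0.808, Benjamini-Hochberg adjusted p = 0.808 over 3 tests). Among the next genes, 16 (5.69%) had at least 500 TPM, against 200 (3.94%) of the others. With members taken from 500 TPM on, the difference was 0.19 (adjusted p = 0.0480, same permutation test), so the outcome of this test too depended on the threshold.

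The same held at larger distances. Over distances of 1 to 10 places from the nearest member, the median of the non-members ranged from 56.6 TPM at 8 places to 75.01 TPM at 3 places. It was 72.7 TPM at 11 to 20 places and 67.8 TPM beyond 20 places. No trend with distance was visible beside the quartiles, which spanned 33.3 to 185 TPM over the first 10 places.

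**Figure D5:**
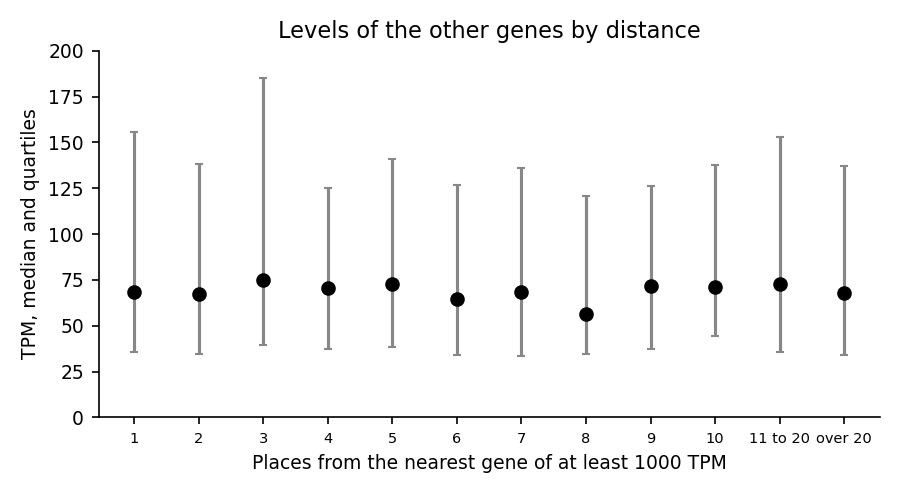
TPM of genes below 1000 TPM against the number of places to the nearest gene of at least 1000 TPM on the same chromosome. Points are medians and bars span the quartiles. The medians stay between 56.6 and 75.01 TPM at every distance.

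The most abundant genes in particular had neighbours of ordinary level. The 20 genes on either side of the 10 leading members had between 15.97 and 240 TPM, with a median of 62.8 TPM, and 18 of them were under 200 TPM. SK1_04G03460, at 26864 TPM, lay between genes of 66.7 and 18.3 TPM. For SK1_03G00700 the flanking genes had 198 and 138 TPM, and for SK1_01G00150 they had 39.9 and 240 TPM. Since members were selected for a high level, a large ratio to the flanking genes follows from the selection, and only the levels of the flanking genes themselves are described.

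Members were present near chromosome ends. Of the 320 genes within the first or last 10 listed genes of a chromosome, 6 were members (1.88%), against 143 of the 5182 genes further inside (2.76%), a difference that was not tested. Places count listed genes only, so genes without a listed value may lie further out. The highest of the 6, SK1_05G00130 with 5331 TPM, was the gene of rank 7 in TPM. It lay 10 places from the end of the listed genes of chromosome V. The other 5 were on chromosomes I, V, VI, XI and XVI and had 1249 to 2534 TPM. The median over all genes was 37.3 TPM in these end regions and 74.2 TPM further inside.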

How the data were processed

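Wild-type messenger RNA was measured in 1 library. The authors deposited TPM values, which sum to 1000000 over the listed genes. The submitters' processing notes list TopHat2, featureCounts and edgeR with no role, and the annotation and any filter on genes are not given in the sources used here. The peak lists of Red1, Hop1 and Rec8, which the authors called with MACS2 2.1.1 on combined replicates in SK1 coordinates, were used only for the covered share of each chromosome (of the length that the lists of the 3 proteins together reach). Among the ChIP replicates that the labels call wild type, a Red1 and a Hop1 sample also carry the label SMC4-PK9, a tagged condensin subunit. The reference genome is S288C, and on 5 chromosomes the peaks reach past its ends, so its coordinates and sequences were not used.

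Genes of at least 1000 TPM were taken. SK1 genes were ordered by the number in their identifier, and TPM values were permuted over places 10000 times, within chromosomes or, for the distribution over chromosomes, over the genome. A pseudocount of 1 was added before log2. P-values were adjusted by Benjamini-Hochberg over 3 tests. The p-value of an alternative was adjusted together with the main p-values of the other tests, not with those of the same alternative. Test functions were tested on simulated data. Named genes were the 5 highest, those with a symbol, the longest run and the 2 on either side of the threshold. Other genes named, those of the adjacent pairs, beside the longest gap and near a chromosome end, were chosen after their values had been seen. The members and lists were chosen with earlier results of these data known. Alternatives concerned the threshold, neighbourhood, permutation, pseudocount and genes left out. Calculations used Python 3.11.15, NumPy 2.4.6, pandas 2.3.3 and SciPy 1.17.1. TPM gives no depth, so its precision is unknown.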

Additional observations from a re-analysis of the deposited data

How the results depend on the processing

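The set depends on its threshold by construction. At 500 TPM it held 365 genes and 48.7% of all TPM, and at 2000 TPM it held 50 genes and 20.1%. Without the gene of highest TPM, the other members held 32.2% of the rest. Several of the 9 alternatives for adjacent pairs kept the 7 pairs of the main setting, so they are not separate checks. The number of adjacent pairs was above the permuted average in all 9 alternatives and was not called in 8 of them. At 500 TPM it was called, with 38 pairs (two-sided permutation test, adjusted p = 0.0300). The 8 others had adjusted p from 0.133, for 30 pairs within 5 places, to 1, without chromosome XIV, picked for its pairs. The 30 pairs within 5 places stood against 20.2 in permuted order (two-sided permutation test, p = 0.0442 before adjustment). The level of genes next to members was not called in 6 of 7 alternatives. At 500 TPM the difference turned from −0.02 to 0.19 on the log2(TPM + 1) scale (two-sided permutation test, adjusted p = 0.0480). The cause was not tested. The distribution over chromosomes was not called in any of 4 alternatives (permutation tests, adjusted p from 0.335 to 0.804), of which the highest left out chromosome VIII, picked for the largest squared departure relative to its expected number. Without chromosomes I, III and VI, chosen after seeing the data, rho with the Red1-covered share went from −0.19 to −0.57. No paired analysis was possible because there is 1 RNA-seq library and the peak lists combine their replicates. Depth is unknown, so the error of values near the threshold could not be given.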

Other observations

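Levels of neighbouring genes were weakly related over the whole table. Spearman's rho between the TPM of adjacent listed genes was 0.10 over all 5486 pairs and 0.11 over the 5195 pairs without a gene of at least 1000 TPM. It was 0.02 for genes 2, 5 or 10 places apart. These values describe genes of 1 library, which are not independent replicates.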
